A study of Drosophila melanogaster with 3 samples.

Results

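The summits described here lie at head-to-head gene pairs, in which the start sites of neighbouring genes face away from each other and transcription runs outwards from the shared stretch of DNA. They are the peak summits of HLH54F in the Drosophila embryo that had the transcription start sites (TSS) of 2 protein-coding genes, on opposite strands and transcribed away from each other, both within 500 bp. Of the 4246 peaks of the authors' reproducible list, called the optimal peaks, 972 met this rule, at 884 distinct pairs of genes (584 summits with a limit of 250 bp). A further 1508 summits had protein-coding start sites of a single direction within 500 bp and are called one-way promoters. There were 7 with start sites on both strands in another arrangement and 1759 with no protein-coding start site in reach. Within the optimal list the rule used positions only, not signals, ranks or sequences. The list itself holds the strongest peaks of the pooled replicates, so signal decided which summits could be members.

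The data are chromatin immunoprecipitation followed by sequencing (ChIP-seq) on whole embryos of 0 to 24 h, with both sexes pooled, in 3 biological replicates of 1 group. The embryos came from a transgenic line that stably expressed HLH54F with green fluorescent protein (GFP) at its C terminus. The labels describe a precipitation with an antibody against GFP, while their antibody field names HLH54F. No second genotype, treatment or age was compared, and the sources used here do not give the promoter that drives the transgene. A whole embryo mixes all tissues and stages, so the cells that gave rise to a peak cannot be told apart.

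Head-to-head promoters are common in the compact fly genome. They serve mostly genes used in all cells, and many hold short elements for promoter and insulator proteins such as BEAF-32 and Dref. HLH54F is a basic helix-loop-helix factor of the caudal visceral mesoderm, the precursor of the longitudinal gut muscles, and proteins of this family bind the E-box.

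The gaps between the start sites of 6 of the strongest pairs show what such a region looks like. They are shown because they carry, in turn, 1 copy of CGATA, 3 copies of CGATA in a pair of arrangements, 1 E-box of the type CAGCTG, and neither motif. The letters come from the RefSeq copy of the release 6 genome (dm6) and run 5′ to 3′ on the plus strand, from the base after the left start site to the base before the right one. Capitals mark CGATA and CAGCTG on either strand, and no annotated exon overlaps these gaps.
Tcs5/CHMP2B (chr3L:5139396-5139618): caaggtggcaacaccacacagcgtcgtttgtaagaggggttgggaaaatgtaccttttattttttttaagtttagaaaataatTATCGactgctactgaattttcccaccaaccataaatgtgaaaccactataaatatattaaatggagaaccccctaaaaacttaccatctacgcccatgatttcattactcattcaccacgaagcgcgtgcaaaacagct
Atat/Shc (chr3L:9426759-9427009): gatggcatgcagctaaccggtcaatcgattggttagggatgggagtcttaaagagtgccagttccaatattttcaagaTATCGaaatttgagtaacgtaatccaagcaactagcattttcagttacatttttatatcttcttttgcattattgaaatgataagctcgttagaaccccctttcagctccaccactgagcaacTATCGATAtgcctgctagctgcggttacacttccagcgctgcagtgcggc
Mkk4/SLIRP2 (chr3R:8650797-8651083): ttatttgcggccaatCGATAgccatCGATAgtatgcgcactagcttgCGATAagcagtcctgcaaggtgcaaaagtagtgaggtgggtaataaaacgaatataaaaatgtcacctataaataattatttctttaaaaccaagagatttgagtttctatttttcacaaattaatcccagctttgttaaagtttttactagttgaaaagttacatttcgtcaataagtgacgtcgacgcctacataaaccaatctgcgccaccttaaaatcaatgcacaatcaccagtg
CG3437/CG3552 (chr3L:9457670-9457911): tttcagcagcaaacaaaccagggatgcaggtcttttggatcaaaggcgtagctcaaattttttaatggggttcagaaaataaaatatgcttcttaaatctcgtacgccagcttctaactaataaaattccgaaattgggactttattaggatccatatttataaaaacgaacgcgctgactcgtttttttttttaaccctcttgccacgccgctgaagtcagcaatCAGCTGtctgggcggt
Bdp1/CG6565 (chr2L:13373891-13374018): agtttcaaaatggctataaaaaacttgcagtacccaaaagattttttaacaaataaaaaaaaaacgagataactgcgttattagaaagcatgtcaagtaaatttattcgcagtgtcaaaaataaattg
Coq4/CG32176 (chr3L:17433622-17433867): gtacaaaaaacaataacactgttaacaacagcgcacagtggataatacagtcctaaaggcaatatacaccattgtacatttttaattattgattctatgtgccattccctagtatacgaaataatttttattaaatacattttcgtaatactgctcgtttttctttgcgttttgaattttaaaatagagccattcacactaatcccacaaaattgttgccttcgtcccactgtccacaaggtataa
The summits lay at base 98 of the gap of Tcs5/CHMP2B, 138 of Atat/Shc, 152 of Mkk4/SLIRP2, 146 of CG3437/CG3552, 59 of Bdp1/CG6565 and 159 of Coq4/CG32176. In Mkk4/SLIRP2 all copies of CGATA stood near the left start site, away from the summit. In Atat/Shc, 2 of the 3 copies were the strands of 1 palindrome, TATCGATA.

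The strongest summit at a head-to-head pair lay at Chro/Ssl1 on 3L. Chro encodes the chromodomain protein Chromator of active chromatin, and Ssl1 a subunit of the general transcription factor TFIIH. Its signal, the value the authors gave the peak, was 2051 in the optimal list. It was 800, 640 and 628 in replicates 1, 2 and 3, where the summit ranked 4, 5 and 6. The summit was not between the start sites: it lay 90 bp to the left of that of Chro, with 105 bp between the pair.

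Tcs5/CHMP2B came next at 1748. Tcs5 takes part in threonylcarbamoyladenosine formation in tRNA, and CHMP2B is a subunit of the membrane-cutting complex ESCRT-III. Its signals of 664, 539 and 559 gave ranks 10, 9 and 7. Atat/Shc, a tubulin acetyltransferase beside an adaptor of receptor tyrosine kinases, had 1740, with 629, 457 and 652 in the replicates and ranks 14, 17 and 5. Both summits lay close to the middle of their gaps, 14 and 12 bp from the midpoint.

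Pdrg1/Pal1, a prefoldin-like protein beside an enzyme of peptide amidation, had 1583 with ranks 16, 16 and 13. Its summit was exactly at the midpoint of a gap of 346 bp. The next pairs hold subunits of the small mitochondrial ribosome. The pair mRpS23/CenG1A had 1512 with ranks 15, 18 and 21. Art3/mRpS10, whose left gene is an arginine methyltransferase, had 1413 with ranks 22, 19 and 25. These 6 pairs stayed within the 25 strongest peaks of every replicate.

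The other 14 of the 20 strongest pairs had signals from 953 to 1281 and replicate ranks from 22 to 70. Among them were Bdp1, a subunit of the RNA polymerase III factor TFIIIB (1090, ranks 52, 40 and 30), and Mkk4, a kinase upstream of JNK (1074, ranks 48, 36 and 47). Lon, the mitochondrial protease, stood beside PIG-F of glycolipid anchor synthesis (986, ranks 54, 61 and 43). Hrd3, of protein degradation at the endoplasmic reticulum, stood beside the mitochondrial phosphatase PTPMT1 (954, ranks 58, 56 and 53). Coq4, of coenzyme Q synthesis, closed the group with 953 and ranks 61, 57 and 57. The pair with the widest spread among the 20 was CG5757/CG5098, at ranks 24, 64 and 22. The remaining pairs were Pex11ab/CG8320, Fbw5/CG9147, CG8372/CG8360, mRpL23/CG9004, tank/CG12194, Mnat9/CG1792, CG3437/CG3552 and CG32022/CG6511.

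**Figure D1:**
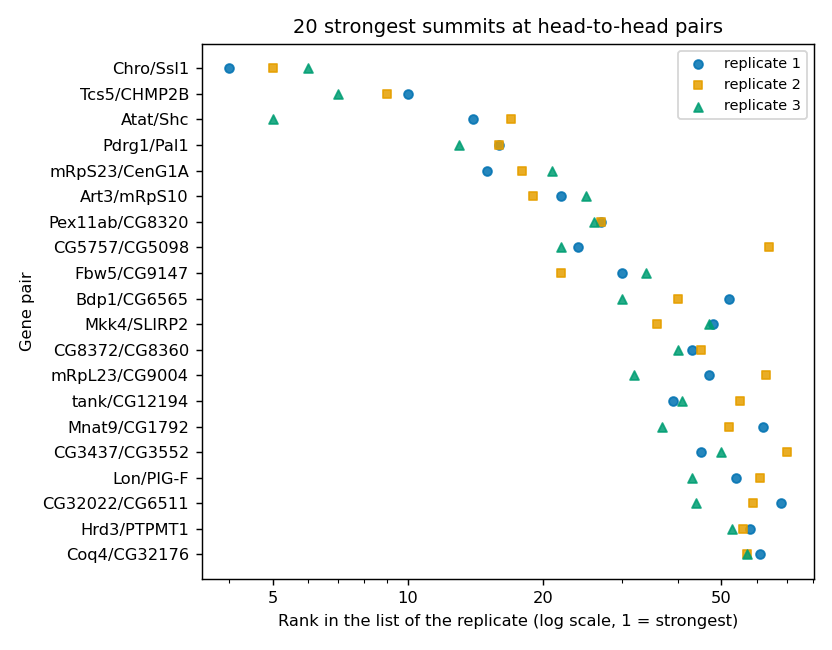
Rank of the 20 strongest summits at head-to-head pairs (vertical axis, strongest at the top) in the list of each replicate (horizontal axis, log scale, 1 is the strongest peak). Each point is 1 replicate; Chro/Ssl1 ranks 4, 5 and 6, and CG5757/CG5098 has the widest spread, 22 to 64.

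At the other end of the set the signals sat at the floor of the optimal list. Gen/Srp54k, a Holliday junction resolvase beside a subunit of the signal recognition particle, had 92.9 with ranks 7915, 4231 and 2859. PolD1/Hip14 had 92.8 with ranks 2680, 6799 and 4769, and CG6550/Mtap had 92.7 with ranks 5190, 6351 and 3144. None of these 3 was in the 4246 strongest peaks of all replicates.

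The limit of 500 bp cut through a continuous range. Just inside it were RpS6/bys (farther start site at 500 bp, signal 113), CG3735/Taldo (499 bp, 166) and Sf3a1/Irc (496 bp, 105). Just outside were CCT8/CG30349 (501 bp, 289), CG10324/CCT3 (501 bp, 147) and CG13038/CG13058 (502 bp, 192).

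Most summits lay in the gap between the start sites. Of the 972, 806 did (82.9%, 95% Wilson interval 80.4% to 85.2%), and 166 lay beyond one of the start sites, 92 on the left and 74 on the right, by a median of 38 bp. The rule forces a position in the gap only where the start sites are more than 500 bp apart. The name of the set thus holds for most members but not for all. When any of the qualifying start sites of the genes counted, 902 summits (92.8%) lay in a gap. In the replicates' own strongest peaks, as many as the optimal list holds, the share was 83.5%, 79.7% and 84.0%.

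Within the gap the summits were spread widely rather than gathered at the centre. From the left start site to the right, 4 equal parts of the gap held 20.6%, 23.2%, 29.0% and 27.2% of the 806. The median distance was 65 bp to the nearer start site and 214 bp to the farther one. At one-way promoters 1268 of 1508 summits (84.1%) lay upstream of the nearest start site, at a median of 106 bp upstream over all of them.

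**Figure D2:**
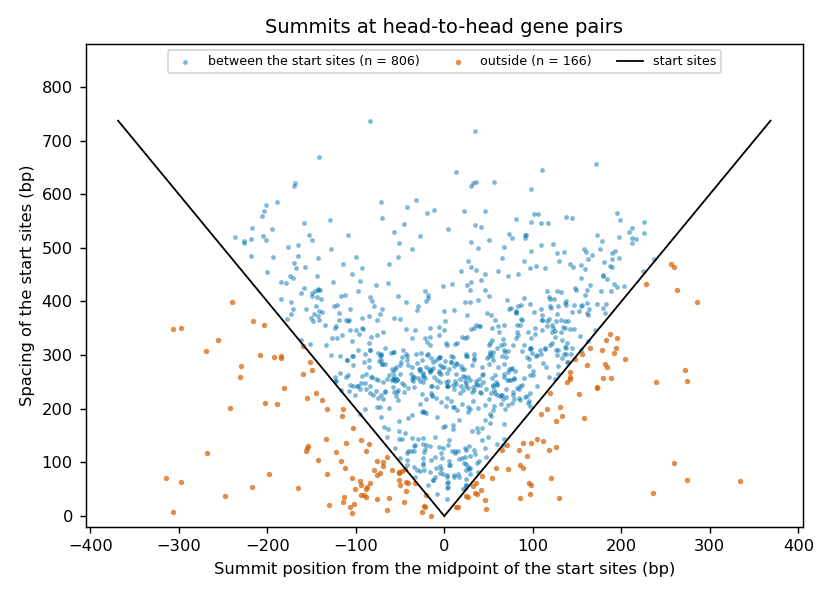
Position of each summit from the midpoint of its pair of start sites (horizontal axis, bp) against the spacing of the start sites (vertical axis, bp); each point is 1 of the 972 summits and the black lines are the start sites. The 806 blue points lie between the lines and the 166 orange points outside, mostly at spacings under 200 bp.

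Start sites were 1 to 737 bp apart, with a median of 281 bp and quartiles of 202 and 378 bp. The closest were those of Atg6/Pisd, the autophagy protein Beclin beside a phospholipid decarboxylase, at 1 bp (signal 119, ranks 2804, 3231 and 4163). CG3032/CG4593 at 6 bp had 250 (ranks 881, 1341 and 895) and SerRS/CG17260, the seryl-tRNA synthetase, at 8 bp had 600 (ranks 147, 185 and 135). The farthest apart were RpS5a/Chchd2 at 737 bp (signal 101.4), CG2246/CG31021 at 717 bp (224) and Nepl19/Nepl20 at 670 bp (148). Median signal was 208 for 123 summits with a spacing of up to 100 bp, 165 for 119 above that and up to 200 bp, 183 for 537 above that and up to 400 bp, and 157 for 193 wider still. The log2 ratio of the closest to the widest class was 0.40, but it was 0.25 ± 0.06 (SD, n = 3) in the replicates' own strongest peaks and 0.07 in the 2000 strongest optimal peaks. Across the 972 summits, which share their libraries, Spearman's rho of signal with spacing was -0.10.

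Where the summit fell changed with the spacing, and the rule itself sets part of this. Up to 100 bp apart, 37.4% of summits lay between the start sites, and over 400 bp apart 97.9% did. Both start sites had to lie within 500 bp of the summit. Wide pairs thus left little room for a summit outside the gap, and pairs over 500 bp apart left none.

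A pair of summits was found at 88 of the 884 pairs, and no pair had more. The summits of these pairs were a median of 207 bp apart, and in 75 the peaks overlapped. No neighbouring summits anywhere in the optimal list were closer than 199 bp, and 209 of its gaps exceeded that by at most 25 bp. The stronger summit had a median of 1.74 times the signal of the weaker. Start sites of such pairs were a median of 321 bp apart, against 272 bp for the 796 pairs with 1 summit. In Fur1/Vps33B, a proprotein convertase beside a vesicle sorting protein, the signals were 928 and 179. In RpL34b/CG8132 they were 679 and 170.

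Where peaks overlap, both optimal summits can fall in 1 replicate peak and then carry its rank. This touched 50, 121 and 50 of the 972 members in replicates 1, 2 and 3, and 188, 302 and 144 of all 4246 optimal summits. The share was larger among members in each replicate. Of the 3 widest rank spreads among members found in all 3 replicates, 2 changed when the replicate peak of nearest summit was used instead. The weaker summit of Cp190/CG4338, at an insulator protein gene, had a signal of 168 and ranks 653, 261 and 4100. With that peak its ranks were 653, 3036 and 4100. The weaker summit of Ype/CG1662 (121) went from ranks 4135, 1287 and 1020 to 4135, 7319 and 22408. Sps1/conv (239) kept ranks 1030, 723 and 3758. The ranks of RpS5a/Chchd2, 612, 891 and 2803, became 5332, 7096 and 2803.

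Head-to-head summits made up 39.1% of the 2487 optimal summits with a protein-coding start site within 500 bp (95% Wilson interval 37.2% to 41.0%). In the replicates' own strongest peaks the share was 38.1%, 38.5% and 40.0% (38.9% ± 0.991, SD, n = 3). The share was highest among strong peaks. It was 44.5% in the first 500 optimal peaks, 44.5% in the next 500 and 46.3% at ranks 1001 to 1500, and it was 28.1%, 32.2% and 30.9% from rank 3001 on.

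**Figure D3:**
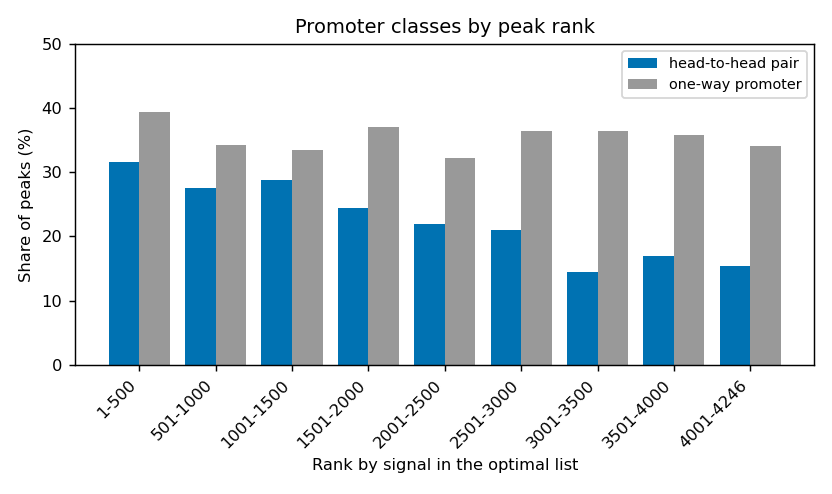
Share of optimal peaks (vertical axis, %) at head-to-head pairs (blue) and one-way promoters (grey) by rank of signal (horizontal axis, 1 is the strongest). The head-to-head share goes from 31.6% of the first 500 peaks to 15.4% of the last 246, and the one-way share from 39.4% to 34.1%.

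Head-to-head summits had a somewhat higher signal than one-way summits. The median was 179 (quartiles 129 and 274, range 92.7 to 2051) against 154 (115 and 242, range 92.7 to 3344), a ratio of 1.16. The log2 ratio of medians in the replicates' own strongest peaks was 0.22, 0.20 and 0.22 (0.21 ± 0.01, SD, n = 3). With the replicates' signals at the optimal summits it was 0.14, 0.19 and 0.29 (0.21 ± 0.08), a wider spread. Each version was above 0 in all 3 replicates. For each, the exact two-sided sign-flip test gave p = 0.25, the smallest value that 3 replicates allow. The strongest one-way peak was above the strongest head-to-head peak, and the ranges overlapped nearly throughout. In the 2000 strongest optimal peaks the log2 ratio was 0.02, and with start sites within 250 bp it was 0.33.

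In each replicate's list the optimal head-to-head summits also stood nearer the top. Their median ranks were 1730, 1651 and 1630, against 2003, 2061 and 2137 for one-way summits. The difference was -397 ± 118 ranks (SD, n = 3, exact sign-flip p = 0.25, lower rank number in 3 of 3). In the 2000 strongest optimal peaks it was -69.2. The optimal list was derived from these same replicates, so the ranks are not independent of it.

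Of the head-to-head summits, 728 (74.9%) fell in the strongest peaks of all 3 replicates, against 992 (65.8%) of the one-way summits and a background of 66.2% over all optimal peaks. Per replicate, 91.3%, 87.1% and 89.0% were found, against 89.3%, 83.5% and 82.6% (difference 4.01 ± 2.21 percentage points, n = 3, exact sign-flip p = 0.25). No head-to-head summit was missing from the strongest peaks of every replicate, beside 5 one-way summits (0.332%) and 14 of all optimal peaks (0.330%). In 1 replicate only, 73 (7.51%) were found, beside 9.75% of one-way summits and 9.82% of all optimal peaks. In the replicates' whole lists the shares were 98.9% and 98.7%, a difference of 0.219 points. Spearman's rho between the ranks of members found in both replicates was 0.80 for replicates 1 and 2 (792 summits), 0.80 for 1 and 3 (802) and 0.73 for 2 and 3 (761). These values describe the ranks across summits that share a control.

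The rule starts from peaks, so the annotation was also taken as the starting point. Of 1995 annotated head-to-head pairs with start sites up to 500 bp apart, 852 (42.7%, Wilson interval 40.6% to 44.9%) had an optimal summit within 250 bp of the midpoint. One-way genes had no protein-coding start site of the opposite strand within 1000 bp. Each was placed at a single start site, that of the transcript marked as canonical, whereas pairs drew on every transcript. Of 8803 one-way genes, 694 had a summit within 250 bp of that site, a background of 7.88% (7.34% to 8.47%). In the strongest peaks of the replicates the shares were 40.9%, 41.0% and 42.1% of pairs against 8.05%, 7.72% and 7.10% of one-way genes. The difference was 33.7 ± 1.15 percentage points (SD, n = 3, higher in 3 of 3, exact sign-flip p = 0.25). A pair window covers the promoters of 2 genes and a one-way window that of 1, and promoter activity was not measured here, so its part in the difference was not tested.

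The share with a summit followed the spacing of the start sites. It was 27.1% of 181 pairs at 1 to 50 bp, 37.5% of 248 at 51 to 100 bp and 41.3% of 208 at up to 150 bp. It was 28.9% (Wilson interval 22.2% to 36.6%) of 149 pairs at 151 to 200 bp, and 53.7% (47.4% to 59.9%) of 242 pairs in the next class, up to 250 bp. From there it went through 53.3%, 51.3%, 46.6% and 35.7% to 34.6% at 451 to 500 bp. The step at 200 bp appeared in every replicate: 28.2%, 27.5% and 26.2% below it and 50.4% in each above it. All replicates scored the same pairs, so their agreement covers the libraries and not the spread over pairs. With a single start site per gene the shares on the sides of the step were 27.1% and 53.8%.

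**Figure D4:**
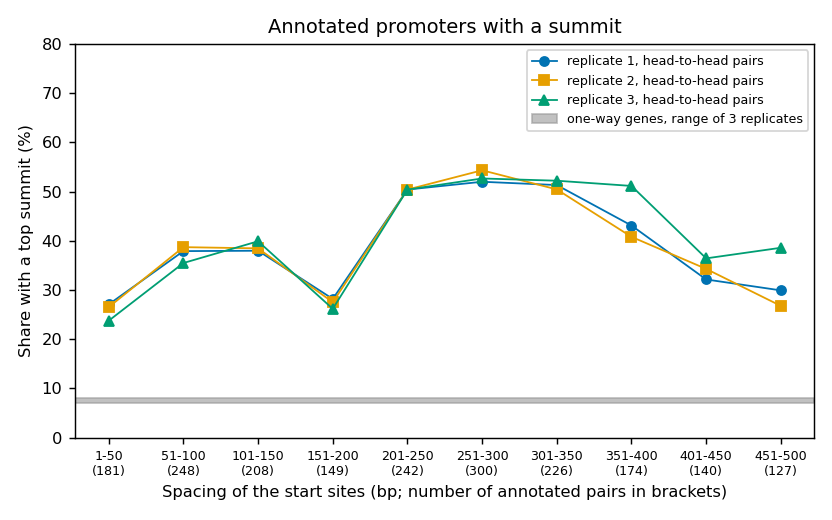
Share of annotated head-to-head pairs with a summit among the strongest peaks of each replicate (vertical axis, %) by spacing of the start sites (horizontal axis, bp, number of pairs in brackets); each line is 1 replicate and the grey band is the range of one-way genes. All replicates are between 26.2% and 28.2% at 151 to 200 bp and at 50.4% in the next class, and the band lies at 7.10% to 8.05%.

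The arms of the genome differed in how many of their annotated pairs had a summit. On 3R 49.6% of 542 pairs had an optimal summit, with 47.4%, 48.0% and 48.5% in the replicates. On X 34.6% of 289 pairs had one, with 33.2%, 32.2% and 34.9%. The other long arms lay between, from 40.3% on 2R to 43.4% on 3L. The replicate ranges of 3R and X did not overlap. The replicates scored the same pairs, so these ranges cover the libraries and not the spread over pairs. Spacing was not compared between the arms. One-way genes on the same arms had 7.44% on 3R and 7.63% on X. Of the 972 summits, 30.3% were on 3R and 12.9% on X, against 21.9% and 18.7% of one-way summits. By annotation alone, 542 of the 1995 pairs lay on 3R and 289 on X, so part of this contrast is in the annotation.

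The pairs held 1767 genes, 12.7% of the 13945 protein-coding genes, and 27.4% of all these genes stood in an annotated pair. Gene families of basic cell functions were counted against those shares. Of 85 cytosolic ribosomal protein genes, 30 (35.3%) were in a pair with a summit, and 35 more had a one-way summit. The strongest was RpS27/Nup37, which joins a ribosomal protein to a nuclear pore protein (signal 875, ranks 55, 87 and 73). Of 73 mitochondrial ribosomal protein genes 31 (42.5%) were in such a pair and 4 had a one-way summit. That family stands head to head in 53 of 73 cases by annotation, against 33 of 85 for the cytosolic one.

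Split by promoter type, the families were set against all genes in annotated pairs, of which 42.5% had an optimal summit, and against the 7.88% of one-way genes. Among cytosolic ribosomal protein genes 25 of 33 in annotated pairs (75.8%) and 21 of 33 one-way genes (63.6%) had an optimal summit. Among mitochondrial ones it was 31 of 53 (58.5%) and 2 of 15 (13.3%). Proteasome genes had a summit in 12 of 24 paired and 2 of 22 one-way cases. Genes of oxidative phosphorylation had one in 16 of 39 (41.0%) and 8 of 42 (19.0%). The paired shares of the proteasome and oxidative phosphorylation were thus near the background, and those of both ribosomes above it.

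The other families of basic functions lay above 12.7% in paired summits. They were the aminoacyl-tRNA synthetases (10 of 33), the nuclear pore (8 of 22), Mediator and general transcription factors (13 of 50), and DNA replication (8 of 29). RNA polymerase subunits (7 of 30), splicing (10 of 33), oxidative phosphorylation (18 of 86), the proteasome (12 of 48), translation initiation (7 of 44) and mitochondrial import (3 of 18) completed them, the last pair of families close to that background. These families also stand head to head by annotation more often than the 27.4% of all genes, in 27.8% (mitochondrial import) to 68.2% (nuclear pore) of cases. Among their genes in annotated pairs, most shares with a summit were near the 42.5% of all such genes. They were 36.4% for splicing, 36.8% for RNA polymerases, 38.9% for initiation, 40.0% for import, 42.9% for the synthetases and 43.3% for Mediator and general factors. DNA replication had 6 of 12 and the nuclear pore 8 of 15. Median signals of these families and both ribosomes ranged from 142 for splicing to 269 for RNA polymerases, beside 179 for all members.

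The strongest member of each family, a maximum and so above the family's median, was as follows. MED30/Rev1 had 791 (mean rank 88.3 ± 13.0, SD, n = 3), CG11247/Polr2H 634 (ranks 152, 250 and 91) and SerRS/CG17260 600. TppII/ND-MWFE, with a subunit of respiratory complex I, had 565 (178, 591 and 94), and Hat1/Rpn5, with a proteasome lid subunit, had 475 (357, 240 and 214). RpL28/eIF1 had 417 (403, 474 and 285), dup/SRPK 395 (301, 430 and 509), Sf3b6/Tnpo 246 (1367, 1331 and 553) and CG8229/Tom7 245 (2017, 1386 and 1184). These summits were in the strongest peaks of all 3 replicates.

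Of 16 insulator and promoter proteins 5 (31.25%) were in such pairs, against 12.7% of all genes. By annotation 8 of the 16 stood head to head, against 27.4% of all genes. Of those 8, 5 had an optimal summit, beside 42.5% of all genes in annotated pairs. The 5 in such pairs were Chro, Cp190, pzg, Dref, the factor that binds TATCGATA, and M1BP, the factor that binds promoter Motif 1. The stronger summit of Cp190/CG4338 had 382 (ranks 653, 261 and 358). The summit of CG12974/pzg had 316 (601, 1082 and 325), and that of Dref/RpL13 266 (730, 748 and 1142). M1BP/CG8202 had 208 and ranks 1182, 5100 and 1158, so replicate 2 stood apart there.

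Tissue and receptor families had lower shares in such pairs than the 12.7% of all genes, on counts of at most 2 genes. The shares went from 0 for cuticle proteins to 5.56% for the caudal visceral mesoderm. Of 18 genes of the caudal visceral mesoderm 1 was in such a pair: mys, an integrin beta subunit, beside fs(1)h (signal 303, ranks 816, 1034 and 465). Of 23 muscle contraction genes it was Tm1, in MRG15/Tm1 (93.7, ranks 3555, 5844 and 5646). Of 44 bHLH genes they were crp in crp/pkaap (353, ranks 462, 542 and 532) and Max in Max/Mettl5 (98.9). Of 46 homeodomain genes it was ro in ro/T48 (206, ranks 1702, 1641 and 938). Of 120 odorant and gustatory receptor genes it was Gr63a, beside Lamtor4 (127, ranks 2539, 2303 and 5367), and no cuticle protein gene of 120 was in such a pair. These families also stood in few annotated pairs, from 2.17% of homeodomain genes to 18.2% of bHLH genes, against 27.4% of all genes. In annotated pairs, 1 of 3 mesoderm, 1 of 3 muscle, 1 of 8 bHLH and 1 of 11 receptor genes had an optimal summit. For homeodomain genes it was 0 of 1 and for cuticle genes 0 of 3, beside 42.5% of all paired genes. Among one-way genes it was 1 of 10 for mesoderm, 1 of 18 for muscle, 2 of 32 for bHLH and 2 of 44 for homeodomain genes. No one-way receptor or cuticle gene had one, beside 7.88% of all one-way genes.

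Both genes of a pair were from the same one of these lists in a single case. In RPA1/Mcm2, a single-strand DNA binding protein and a subunit of the replicative helicase, the signal was 217 and the ranks were 1112, 3378 and 684. Its start sites were 519 bp apart, and the summit lay 47 bp from that of Mcm2.

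Sequence was compared in windows of 100 bp on each side of the summits of each replicate's strongest peaks, with both strands searched. CGATA, bound by BEAF-32, was in 50.5% ± 0.703 of head-to-head windows and 39.0% ± 0.742 of one-way windows, a difference of 11.6 ± 1.43 points (SD, n = 3). With a single start site per gene the difference was 6.17 points, and with 50 bp on each side 7.50 points. TATCGATA, the element of Dref, which contains CGATA on both strands, was in 12.2% and 7.53%. The E-box CANNTG was in 63.9% and 61.2%, its form CAGCTG in 17.4% ± 1.24 and 12.0% ± 0.771, and its form CACCTG in 6.70% and 6.01%. With 50 bp on each side the difference in CAGCTG was 2.10 points, against 5.36 with 100 bp, and with 200 bp it was 8.88 points. The small difference in CACCTG changed sign with 50 bp (-0.0613 points) and in the optimal list (-0.0538 points). GGTCACAC, the core of Motif 1, was in 7.01% and 4.46%, and TATAAA in 35.2% and 27.5%. GAGAG, which the GAGA factor binds, went the other way with 15.0% and 23.9%. CAGGTAG, the Zelda site, was in 0.631% and 0.581%. These differences also grew with the window: from 50 to 200 bp on each side that of GAGAG went from -3.28 to -17.7 points, that of GGTCACAC from 1.47 to 6.42, that of TATCGATA from 3.22 to 9.22 and that of TATAAA from 4.22 to 8.61.

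The direction was the same in all 3 replicates for every one of these sequences except CAGGTAG. The exact sign-flip test gave p = 0.25, its smallest value, for those, and p = 0.5 for CAGGTAG. The GC content of the windows was 36.7% and 38.9%, a difference of -2.19 ± 0.168 points. Over 13944 protein-coding promoters of the annotation, in windows of the same length, CGATA was in 38.2%, CAGCTG in 11.7%, TATCGATA in 7.02% and GGTCACAC in 3.68%. The shares there were 61.3% for CANNTG, 6.38% for CACCTG, 36.5% for TATAAA, 22.7% for GAGAG and 1.20% for CAGGTAG.

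**Figure D5:**
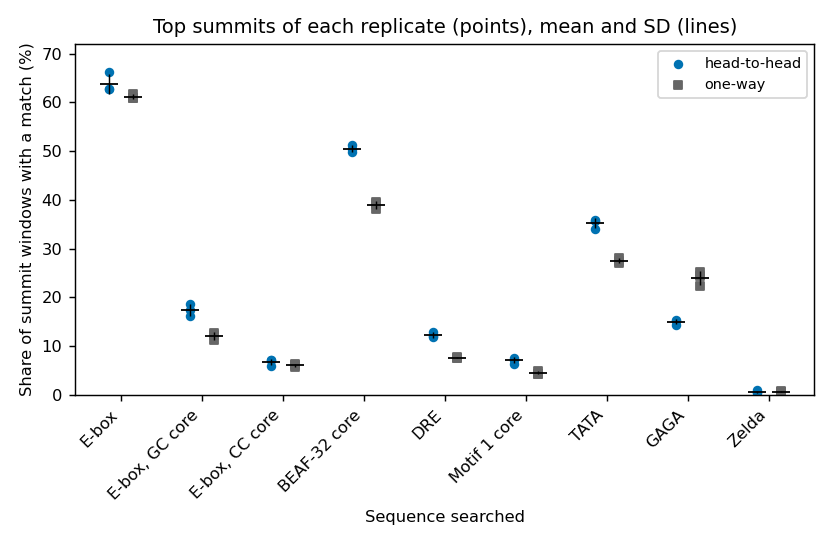
Share of summit windows with a match (vertical axis, %) for each sequence searched (horizontal axis), at head-to-head (blue) and one-way (grey) summits; points are the 3 replicates and black lines their mean and SD. The E-box with GC core is CAGCTG and that with CC core CACCTG; the BEAF-32 core is at 50.5% against 39.0%, and GAGA at 15.0% against 23.9%.

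Among annotated pairs, those with a summit held the E-box CANNTG and GGTCACAC in a lower share than those without, and the other sequences differed by under 2 points. In windows at the midpoint of the pair, CGATA was in 46.7% of the 852 pairs with an optimal summit and in 46.8% of the 1143 without. CAGCTG was in 14.7% and 15.4%. By replicate, the difference for CGATA was -1.82 ± 2.21 points and that for CAGCTG -1.52 ± 1.20 points (SD, n = 3). It was -1.02 points for CACCTG, -0.303 for TATCGATA, 0.766 for TATAAA, -0.430 for GAGAG and -0.283 for CAGGTAG. The E-box CANNTG was in fewer pairs with a summit, 54.8% against 60.7% (-6.42 ± 1.21 points, lower in 3 of 3, exact sign-flip p = 0.25). GGTCACAC was also in fewer, 5.05% against 8.57% (-3.50 ± 0.388 points, lower in 3 of 3, exact p = 0.25).

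Spacing decides how much of a midpoint window is gap, so pairs more than 200 and up to 400 bp apart were also taken alone. There CGATA was in 41.5% of 487 pairs with a summit and 34.3% of 455 without (4.82 ± 1.38 points, higher in 3 of 3). GGTCACAC was in 2.67% and 3.52%, with a difference by replicate of 0.439 ± 0.563 points, so the lower share did not hold within this class. CANNTG was in 48.0% and 56.0% (-7.82 ± 2.73 points) and CAGCTG in 8.01% and 8.57% (-1.28 ± 0.746 points).

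Within the 972 summits, those with a match had a lower median signal than those without for each sequence searched except TATAAA. The 504 with CGATA had a median signal of 166, against 196 for the 468 without, and their median ranks were higher in number by 457 ± 118 over the replicates (n = 3, 3 of 3, exact p = 0.25). The 79 with GGTCACAC had 138 against 187. Their median ranks were 2520, 2483 and 2430 against 1646, 1557 and 1538, a difference of 897 ± 26.4 (exact p = 0.25). The 178 with CAGCTG had 163 against 182 (224 ± 55.8 ranks). The 346 with TATAAA had 183 against 178, and median ranks lower in number by -113 ± 13.3 in 3 of 3 replicates (exact p = 0.25). The 120 with TATCGATA had 178 against 179. The 143 with GAGAG had 165 against 182 (320 ± 122 ranks), and the 62 with CACCTG 165 against 180 (297 ± 118 ranks). The 617 with CANNTG had 177 against 182, and the 7 with CAGGTAG 162 against 179. The 378 summits with neither CGATA nor CAGCTG had the highest median signal of the 4 combinations, 200, and the 88 with both had the lowest, 153.

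Where present, the nearest CGATA lay a median of 33 bp from the summit, and within 25 bp in 40.1% of the 504. The nearest CAGCTG lay at a median of 53 bp, within 25 bp in 21.9% of the 178. The nearest E-box of any form, CANNTG, lay at 36.5 bp, within 25 bp in 35.3% of the 617. For TATCGATA the median was 38.5 bp and for CACCTG 39 bp, and the remaining sequences lay between 42 bp (GAGAG) and 56 bp (CAGGTAG). The distance that the number of copies in a window would give was not worked out. Signal and GC content were nearly unrelated across members, with Spearman's rho -0.06 over 972 summits.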

How the data were processed

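The peak lists in dm6 were used as deposited. Per the text records with the samples, each replicate's list and a pooled list were called against a control. From these the authors made the optimal list by the irreproducible discovery rate procedure. Its 4246 peaks are the strongest of the 23689 pooled ones, and the replicates' lists held 30000, 30000 and 24914. The sources used here do not give the aligner, the caller, their settings or the scaling of the signal, and depth is unknown. The authors' deposited signal was used only within a list. The −log10 q-values were deposited too and entered no comparison.

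The 5′ end of every transcript of a protein-coding gene was taken as a start site, from Ensembl release 115 (BDGP6.54). Only the one-way genes of the annotation were placed at that of their canonical transcript alone. Where several pairs qualified, that with the smallest summed distance was taken. A summit took the rank of the strongest replicate peak that held it, or the last rank plus 1. Strongest peaks are the first 4246 of a replicate. Conditions were compared over replicates by exact two-sided sign-flip permutation tests, which cannot go below 0.25. Peaks are not replicates, so intervals cover counting only. Named pairs were the 20 strongest found in all replicates, the strongest of each list and any within 1 list, the 3 weakest, the 3 of widest rank spread, the 3 nearest the limit on each side, the 3 smallest and 3 largest spacings, and pairs with a second summit. Max, pzg, Dref and M1BP were chosen after their values were seen. The members and lists were chosen with earlier results of these data known. Scripts (Python 3.11.15, pandas 2.3.3, scipy 1.17.1) were tested on simulated data. The dm3 lists were not used here.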

Additional observations from a re-analysis of the deposited data

How the results depend on the processing

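Of 154 alternative values over 18 results, 96 stayed within 1 SD of the replicates (counts within 1.5 times), 55 moved and 3 reversed; the cause was not tested. With start sites within 250 bp there were 584 summits, the share of promoter summits was 27.9%, the log2 signal ratio 0.33 and the rank difference -555. Within 1000 bp the share was 42.2% and the ratio 0.17. With 1 start site per gene the share was 41.5%, the ratio 0.19, the share between start sites 78.8%, the log2 signal ratio of spacings up to 100 bp to those over 400 bp 0.46 (0.40 as reported), and the differences 3.78 points for CAGCTG, 6.17 for CGATA and -2.44 for GC. In the 2000 strongest peaks the share was 43.8%, the signal ratio 0.0205, the rank difference -69.2, the spacing ratio 0.0703, CAGCTG 6.99 and GC -1.86. The replicates' own strongest peaks gave 0.25 for spacing. With one-way summits upstream of their start site only, the signal ratio was 0.17 and GC -1.43. Whole lists gave 0.219 points for the share found. Windows of 50 bp gave CAGCTG 2.10, CGATA 7.50 and GC -1.92, and those of 200 bp 8.88, 13.1 and -1.83. The optimal list gave CAGCTG 6.38 and GC -1.86. CACCTG reversed with 50 bp (-0.0613) and in the optimal list (-0.0538), and CAGGTAG with 50 bp (-0.00014). Chosen after seeing the data, a summit within 100 bp gave 25.5 points between pairs and one-way genes, within 500 bp 34.2. The replicate peak of nearest summit gave -354 ranks and 3.39 points found, and the strongest summit of each pair or gene -367 ranks and a log2 signal ratio of 0.22.

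No paired analysis was possible because there was 1 group, with no second set of samples to pair; promoter classes were compared within each replicate. Unknown depth, a shared control and 3 replicates limit what can be told apart.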
